A study of Mus musculus with 8 samples.

Results

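The 40 genes described here mark T cells, cytotoxic and natural killer (NK) cells, B cells and plasma cells, the lymphocytes of the liver. They were chosen by name, with earlier results of these data known. They comprise 16 T cell genes, 12 cytotoxic and NK genes, 7 B cell genes and 5 plasma cell genes. Of these, 39 were measured among the 19560 genes of the series. The T cell kinase gene Lck was not analysed here, since no probe set carried its symbol in the array annotation used. RNA came from whole liver of male mice aged 6 weeks, with 1 Affymetrix array per mouse. In 4 mice, named Tak1/Casp8 here, TAK1 and caspase 8 had both been deleted in liver parenchymal cells (LPC). The other 4, named Tak1/Rip3, had lost TAK1 in those cells and carried a Rip3-/- knockout. All 8 livers thus lacked TAK1, the kinase encoded by Map3k7, in LPC, and livers with TAK1 intact were not analysed here. No label names the Cre driver or the mouse strain, and the Rip3 knockout, unlike the other deletions, is not labelled as limited to LPC. The comparison was made to detect genes that apoptosis and necrosis regulate differently. Each difference below is Tak1/Casp8 minus Tak1/Rip3.

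Each value is a log2 intensity after RMA normalisation, and a gene was given the median over its probe sets. Casp8 lay between 9.81 and 10.07 in Tak1/Casp8 livers, against 11.09 to 11.40 in Tak1/Rip3 livers, and Ripk3 between 7.78 and 7.99 in Tak1/Casp8 livers, against 6.36 to 7.18 in Tak1/Rip3 livers, as the labels have it. Map3k7, deleted in both groups, differed by -0.08. The arrays had medians of 8.06 to 8.16 and pairwise correlations across genes of 0.975 to 0.993. Tak1/Casp8 replicate 4 correlated least with its own group (mean 0.985). Some probe sets of the lymphocyte genes were far lower on it than on the other arrays. The level that stood for background was the lower quartile of all probe sets of an array, which was 6.47 to 6.49 on the Tak1/Casp8 arrays and 6.51 to 6.52 on the Tak1/Rip3 arrays. Hepatocyte markers averaged 13.07 to 13.19 on the Tak1/Casp8 arrays and 12.96 to 13.06 on the Tak1/Rip3 arrays. The list did not shift as a whole, since 4 of its 8 genes had positive and 4 negative differences. Their median was -0.01, with values from -0.12 to 0.96, and only Serpina1a passed, higher in Tak1/Casp8 livers. Of the 8 pan-leukocyte genes 7 had negative differences, with a median of -0.20 and values from -0.65 for Cd52, the only one that passed, to 0.02 for Itgb2. In whole tissue, fewer cells of a type and less RNA per cell cannot be told apart.

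Lymphocytes read antigen through receptor complexes that lack kinase activity of their own. In T cells the CD3 chains pass the signal to the kinase ZAP-70, and in B cells the chains CD79A and CD79B pass it to related kinases and to the adaptor BLNK. NK cells carry no such rearranged receptor and kill with perforin and granzymes, as cytotoxic T cells do. Plasma cells are antibody factories that have switched off most B cell surface genes and expanded their secretory machinery. The mouse liver harbours all of them in its sinusoids and portal tracts, as a minority beside hepatocytes.

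Cd79a and Zap70 were the measured members that passed the test and had an entry in the RefSeq promoter table (build GRCm38.p6), in which 29 of the 40 members were found. Their windows, from 250 bases before to 50 after an annotated start, are shown because the members' results turn on these genes. For Zap70, whose probe sets split into 2 kinds (below), the windows of the outermost of its 3 annotated starts are given, the later of which lies inside the gene. Capitals mark the E-box CAGGTG on either strand, a sequence bound by E proteins such as E2A, which B and T cell development needs. The motif was chosen after matches had been seen.
Cd79a, chr7:24897247-24897546, plus strand: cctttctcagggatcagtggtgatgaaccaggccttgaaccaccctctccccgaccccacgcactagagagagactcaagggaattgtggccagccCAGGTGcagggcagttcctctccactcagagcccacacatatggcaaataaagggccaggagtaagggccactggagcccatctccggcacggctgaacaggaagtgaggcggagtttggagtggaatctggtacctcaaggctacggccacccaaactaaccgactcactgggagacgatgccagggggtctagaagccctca
Zap70, outer start, chr1:36761548-36761847, plus strand: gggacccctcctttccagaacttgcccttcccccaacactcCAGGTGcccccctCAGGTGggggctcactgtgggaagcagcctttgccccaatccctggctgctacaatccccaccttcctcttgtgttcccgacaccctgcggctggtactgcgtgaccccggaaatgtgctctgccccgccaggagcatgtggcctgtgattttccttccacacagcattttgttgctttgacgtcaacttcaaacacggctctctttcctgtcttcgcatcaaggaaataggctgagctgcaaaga
Zap70, inner start, chr1:36778734-36779033, plus strand: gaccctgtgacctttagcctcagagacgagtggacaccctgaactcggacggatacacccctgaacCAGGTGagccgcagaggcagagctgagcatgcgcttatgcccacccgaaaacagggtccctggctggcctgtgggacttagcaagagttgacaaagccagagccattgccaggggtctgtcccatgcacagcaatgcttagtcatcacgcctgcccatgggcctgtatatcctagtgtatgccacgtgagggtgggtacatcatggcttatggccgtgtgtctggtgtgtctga
The Cd79a window held 1 E-box, the outer Zap70 window 2 and the inner Zap70 window 1, and the window of the middle Zap70 start, chr1:36764265-36764564, held 0. At least 1 was held by 20.2% of all 32851 windows. By gene, 16 of the 29 members with a window held one, against 22.6% of all genes in the table, a description without a test. No window shown held the octamer ATGCAAAT, which 1.74% of all windows held. A match is not a binding site, and the absence of a match concerns only these letters in this window.

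Most lymphocyte genes lay near the background of the arrays. On all 4 arrays of the group, 16 of the 39 measured members were above the lower quartile in Tak1/Casp8 livers and 18 in Tak1/Rip3 livers, and 14 were above it on all 8 arrays. These 14 were the T cell genes Cd3e, Cd4, Cd8a, Cd5, Icos and Lat, the cytotoxic genes Nkg7 and Prf1, the B cell genes Cd79b and Cd22, and Mzb1, Derl3, Sdc1 and Prdm1 of the plasma cell genes. Another 10 were under it on all 8 arrays, namely Cd3d, Cd247, Ctla4, Klrb1c, Klrd1, Gzma, Gzmb, Ncr1, Eomes and Ms4a1. The remaining 15 crossed it on some arrays. Of all 19560 genes, 12958 were above it in Tak1/Casp8 livers and 12951 in Tak1/Rip3 livers. On all 8 arrays 12525 of all genes were above it and 4592 under it. Against the stricter level of the array median only 2 members were above it in Tak1/Casp8 livers and 1 in Tak1/Rip3 livers. Taking the brightest probe set of each gene instead of the median raised the numbers above the lower quartile to 35 in Tak1/Casp8 livers and 36 in Tak1/Rip3 livers, so that nearly every member has some probe set over background. Intensities near background are compressed, so a fold of a dim member can understate a difference in RNA.

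Of the 39 measured members 3 passed the test, all lower in Tak1/Casp8 livers: the B cell genes Cd79a and Ms4a1 and the T cell gene Zap70. That is 7.69%, near the 6.69% of all genes that passed, and for genes lower in Tak1/Casp8 livers the share over all genes was 4.05%. Shifting every array to 1 median turned the split over all genes, 516 higher and 792 lower, to 857 higher and 631 lower, and left the same 3 members called. The 4 values of one group lay wholly beyond those of the other in 6 members, or 15.4%, against 14.6% of all genes, and all 6 were lower in Tak1/Casp8 livers. Over all genes 8.3% lay apart in that direction and 6.33% in the other. The median difference over the members was -0.06, against 0.01 over all genes. By subset it was -0.05 for T cell genes, -0.05 for cytotoxic and NK genes, -0.16 for B cell genes and 0.28 for plasma cell genes, the last resting on 5 genes. Negative differences were held by 26 of the 39 members and by 9272 of all 19560 genes. By subset they were held by 8 of 15 T cell, 10 of 12 cytotoxic and NK, 6 of 7 B cell and 2 of 5 plasma cell genes. As a whole, then, the lymphocyte genes were called about as often as any gene, and the calls fell on 3 genes. The plot of all members by subset shows them.

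**Figure D1:**
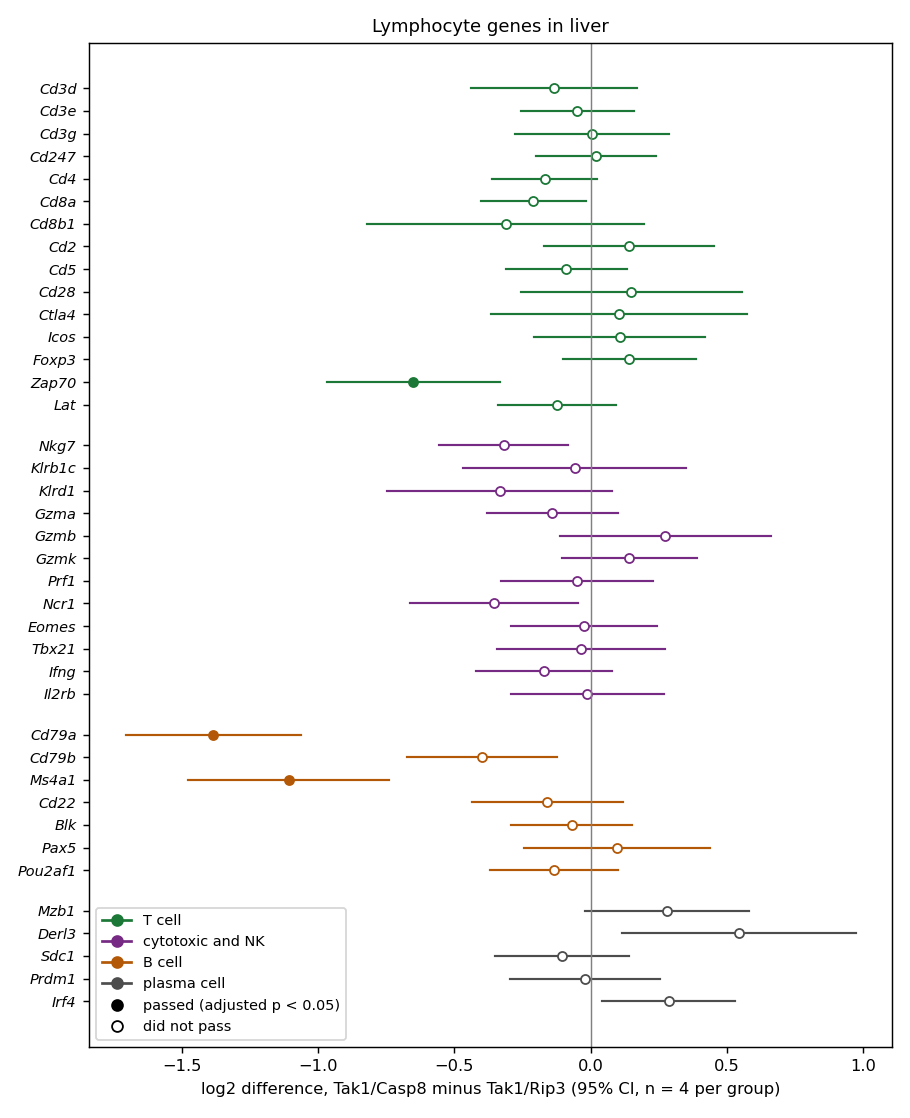
Log2 difference of each measured lymphocyte gene, Tak1/Casp8 minus Tak1/Rip3 (points, 95% confidence interval as lines, n = 4 per group), by subset. Filled points passed the limma test at an adjusted p under 0.05. Cd79a and Ms4a1 lie furthest left, Zap70 follows, and 3 of the 5 plasma cell genes lie right of 0 without passing.

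B cell genes held the largest differences. Cd79a, which encodes one chain of the signalling pair of the B cell receptor, had levels of 5.20, 4.70, 5.23 and 5.23 in Tak1/Casp8 livers, against 6.66, 6.60, 6.37 and 6.26 in Tak1/Rip3 livers. The groups did not overlap, with a clear gap between them, and all 4 Tak1/Casp8 values and 2 of the 4 Tak1/Rip3 values were under the lower quartile of their arrays. The difference was -1.38 ± 0.15 (SE, n = 4 each, limma adjusted p = 0.00071). Ms4a1, the gene of the B cell surface protein CD20, had levels of 4.92, 5.08, 4.46 and 5.11 in Tak1/Casp8 livers, against 6.32, 5.84, 5.79 and 6.05 in Tak1/Rip3 livers. Again no values overlapped, and all 8 were under the lower quartile. It differed by -1.11 ± 0.17 (limma adjusted p = 0.00442). No fold is given for either gene, since the Tak1/Casp8 values lie under that level. Both calls held when any 1 array was left out, with differences from -1.45 to -1.25 for Cd79a and from -1.18 to -0.96 for Ms4a1.

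The members had 322 probe sets in all, of which 10 passed, all lower in Tak1/Casp8 livers, or 3.11%, against 1.63% of all probe sets (1.09% for lower ones). They belonged to Zap70 (5), Ms4a1 (2), Cd79a, Cd79b and Lat (1 each). The fall in Cd79a and Ms4a1 was thus carried by part of their probe sets. Of the 4 probe sets of Cd79a, the middle pair by brightness differed by -1.36 (adjusted p = 0.0281) and -1.56 (0.0768), by limma over all 223771 probe sets. The brightest differed by -0.44 (0.369) and the dimmest by 0.39 (0.326). Only the brightest of the 4 had a mean over all arrays above the lower quartile. Of the 9 probe sets of Ms4a1, those in positions 2, 4, 5 and 6 of their numbering differed by -1.64 to -1.10, of which 2 passed. Its brightest probe set, the only one whose mean over all arrays was over the lower quartile, had means of 6.72 in Tak1/Casp8 livers and 6.88 in Tak1/Rip3 livers, a difference of -0.16. With the brightest probe set standing for the gene neither call remained (limma adjusted p = 0.261 for Cd79a and 0.644 for Ms4a1). With only the probe sets over the lower quartile, 0 of the 7 B cell members passed. Ms4a1 also did not pass by an unmoderated test with unequal variances (adjusted p = 0.0793).

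Cd79b, the partner chain of Cd79a, was above the lower quartile on all 8 arrays and gives another reading of the same receptor. Its levels were 7.58, 7.33, 7.39 and 7.23 in Tak1/Casp8 livers, against 8.00, 7.50, 7.86 and 7.76 in Tak1/Rip3 livers. The ranges overlapped only where Tak1/Casp8 replicate 1 (7.58) lay over Tak1/Rip3 replicate 2 (7.50). The difference of -0.40 ± 0.12 did not pass (SE, n = 4 each, limma adjusted p = 0.0899), while 7 of its 8 probe sets had negative differences and the brightest, at 9.08 in Tak1/Casp8 livers and 9.76 in Tak1/Rip3 livers, passed (-0.68, adjusted p = 0.0391). Without Tak1/Rip3 replicate 2, Cd79b passed as a gene (-0.49, limma adjusted p = 0.0342). With any other 1 array left out, Tak1/Casp8 replicate 1 included, it did not pass.

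**Figure D2:**
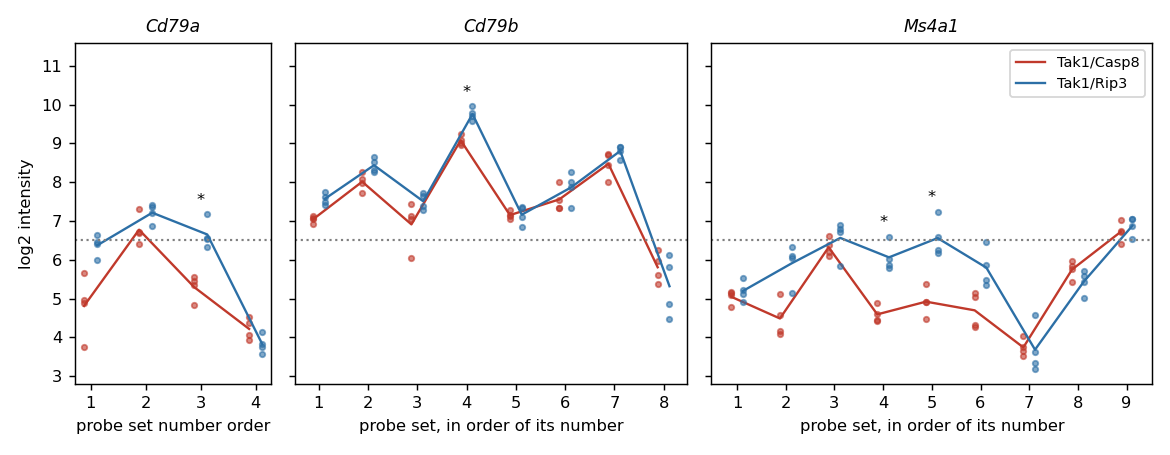
Log2 intensity of each probe set of Cd79a, Cd79b and Ms4a1, in the order of the probe set numbers, with 1 point per array, group means as lines, the mean lower quartile dotted, and an asterisk where the probe set passed. The Tak1/Casp8 line lies under the Tak1/Rip3 line at most probe sets, and the widest gaps of Cd79a and Ms4a1 are at dim probe sets.

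The other 4 B cell members did not pass. The inhibitory receptor gene Cd22 differed by -0.16, the B lineage kinase gene Blk by -0.07, the transcription factor gene Pax5 by 0.10 and its fellow Pou2af1, which encodes a coactivator at octamer sites, by -0.13 (adjusted p from 0.519 to 0.778). The 95% intervals of these 4 reached from -0.43 to 0.44 in log2 intensity. Blk, Pax5 and Pou2af1 lay near the lower quartile, where intensities are compressed, so their intervals do not bound differences in RNA. Probe sets with negative differences numbered 14 of 19 for Cd22 and 11 of 16 for Blk. For Pax5 they numbered 4 of 9, and for Pou2af1 2 of 5. The mean level over all 7 B cell members was 6.30 to 6.40 on the Tak1/Casp8 arrays and 6.66 to 6.92 on the Tak1/Rip3 arrays, a separation that Cd79a and Ms4a1 carry. The median over the 7 was 6.60 to 6.70 on the Tak1/Casp8 arrays and 6.49 to 6.85 on the Tak1/Rip3 arrays, which overlap.

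A list of 19 further B cell genes, of which 17 were measured, showed the same direction. Like the members and the other lists, it was chosen with earlier results of these data known. Its share is thus a description without a test and not independent support. Of these 6 passed, all lower in Tak1/Casp8 livers, that is 35.3% against 4.05% of all genes, with a median difference of -0.28 against 0.01. Blnk, the adaptor next to the B cell receptor, had levels of 6.81, 7.09, 6.51 and 7.08 in Tak1/Casp8 livers, against 8.23, 7.96, 7.96 and 8.25 in Tak1/Rip3 livers. It was 2.34-fold lower (limma adjusted p = 0.0013) and passed with the brightest probe set too. The complement receptor gene Cr2 (-0.94 ± 0.16, SE, n = 4 each), the lymphocyte surface gene Ly9 (-0.84 ± 0.13) and Cd72 (-0.58 ± 0.11) were lower as well, and these 4 passed whichever array was left out. The other 2 were Spib (-0.74), a transcription factor gene of B cells and plasmacytoid dendritic cells, and Tnfrsf13c (-0.47), which encodes the receptor for the survival factor BAFF. Cr2 was under the lower quartile on all 8 arrays, and Spib on all 4 Tak1/Casp8 arrays. For Cr2 1 of 27 probe sets passed, and for Spib 0 of 5. Leaving out 1 array at a time gave between 4 and 7 genes, with only 4 without Tak1/Casp8 replicate 1 or 2 or without any 1 Tak1/Rip3 array, and the brightest probe sets left only Cd72 and Blnk. By the unmoderated test with unequal variances 0 of the 17 passed, where 115 of all genes did.

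Of 7 dendritic cell markers 2 were lower in Tak1/Casp8 livers, or 28.6% against 4.05% of all genes. They were Siglech, a surface lectin gene of plasmacytoid dendritic cells (-0.68 ± 0.08, SE, n = 4 each, limma adjusted p = 0.00171), and Itgax, the gene of CD11c (-0.86 ± 0.13, 0.00511). The others did not pass, with Xcr1 at -0.46, Ccr9 at -0.38, Flt3 at -0.04, Zbtb46 at -0.001 and Clec9a at 0.43. The mean level over the list was 6.90 to 7.11 on the Tak1/Casp8 arrays and 7.22 to 7.35 on the Tak1/Rip3 arrays. None of the 10 Kupffer cell and monocyte markers passed, and their list averaged 9.51 to 10.01 on the Tak1/Casp8 arrays and 9.58 to 9.80 on the Tak1/Rip3 arrays. Of the pan-leukocyte genes Rac2 (-0.31), Laptm5 (-0.28), Arhgdib (-0.22), Cd53 (-0.18), Coro1a (-0.01) and Ptprc, which encodes CD45 (-0.003), did not pass. Cd52 passed, and without Tak1/Casp8 replicate 2, 3 or 4 or Tak1/Rip3 replicate 1 or 2 it did not (adjusted p up to 0.105). Of 7 neutrophil markers Cxcr2 and Csf3r were higher in Tak1/Casp8 livers (28.6%, against 2.64% of all genes), and Csf3r (adjusted p = 0.0499) did not pass whichever array was left out. Of 7 stellate cell markers Lrat and Reln were lower (28.6%, against 4.05%), and Reln did not pass without Tak1/Casp8 replicate 2 or any 1 Tak1/Rip3 array. The part of these cells in the lymphocyte differences was not tested.

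None of the 5 plasma cell members passed, and 3 had positive differences. Derl3, a factor of the endoplasmic reticulum that clears misfolded protein in secretory cells, had levels of 8.58, 8.77, 9.04 and 8.44 in Tak1/Casp8 livers, against 8.71, 7.80, 8.10 and 8.04 in Tak1/Rip3 livers. Only Tak1/Rip3 replicate 1 reached into the Tak1/Casp8 range. The difference of 0.55 ± 0.19 did not pass (SE, n = 4 each, limma adjusted p = 0.133), though all 8 probe sets of Derl3 had positive differences, from 0.29 to 1.37, and it passed without Tak1/Rip3 replicate 1 (0.73, adjusted p = 0.0378) or with the mean over its probe sets (0.87, 0.0392). Hepatocytes also express secretory stress genes of this kind.

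Mzb1, which assists antibody assembly in B and plasma cells, had levels of 7.28, 7.54, 7.04 and 7.48 in Tak1/Casp8 livers, against 6.92, 7.28, 6.88 and 7.13 in Tak1/Rip3 livers. The ranges overlapped, all 4 of its probe sets had positive differences, and the gene differed by 0.28 ± 0.14 (SE, n = 4 each, limma adjusted p = 0.269). Irf4, a transcription factor gene of plasma cells and activated lymphocytes, had levels of 6.38, 6.46, 6.14 and 6.58 in Tak1/Casp8 livers, against 6.23, 6.03, 6.07 and 6.07 in Tak1/Rip3 livers. All but 1 of these 8 values were under the lower quartile, and the difference was 0.29 ± 0.11 (adjusted p = 0.163). Sdc1, the plasma cell marker CD138, and Prdm1, which encodes the regulator Blimp-1, differed by -0.11 and -0.02. Sdc1 stood at 11.52 ± 0.07 in Tak1/Casp8 livers and 11.63 ± 0.20 in Tak1/Rip3 livers (SD, n = 4 each), and hepatocytes make syndecan-1 themselves.

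Among 12 measured genes of a further plasma cell list, 3 passed, all higher in Tak1/Casp8 livers, that is 25% against 2.64% of all genes. All 3 belong to antibodies. Jchain, which links the units of polymeric immunoglobulin, had levels of 9.41, 8.42, 8.69 and 7.92 in Tak1/Casp8 livers, against 6.63, 6.58, 6.44 and 6.66 in Tak1/Rip3 livers. The groups did not overlap, and the Tak1/Casp8 livers were the more spread (2.03 ± 0.25, SE, n = 4 each, limma adjusted p = 0.00171). The light chain genes Igk (2.24 ± 0.46) and Iglv1 (1.29 ± 0.28) rest on 2 probe sets each, which related immunoglobulin genes can share. Igk was under the lower quartile on all 4 Tak1/Rip3 arrays, and over it on 3 Tak1/Casp8 arrays. Of its 2 probe sets 0 passed, and the gene did not pass with the brightest or the brighter probe sets. Iglv1 did not pass without Tak1/Casp8 replicate 2, Tak1/Rip3 replicate 1 or Tak1/Rip3 replicate 4 (adjusted p up to 0.0688). The other 9 did not pass and went both ways. Ighm, the heavy chain gene of IgM, differed by 0.45 with overlapping groups and 4 of its 8 probe sets lower (adjusted p = 0.495). Ell2 (0.27), Edem1 (0.23), the secretory regulator gene Xbp1 (0.21) and Tnfrsf17, the plasma cell receptor BCMA (0.09), were on the positive side. Slamf7 (-0.32), Txndc5 (-0.26), Creld2 (-0.17) and Fkbp11 (-0.07) were on the negative side, and Txndc5 had all 13 probe sets lower and groups that did not overlap (adjusted p = 0.0899). The plot of the gene lists shows both the B cell and the plasma cell genes.

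**Figure D3:**
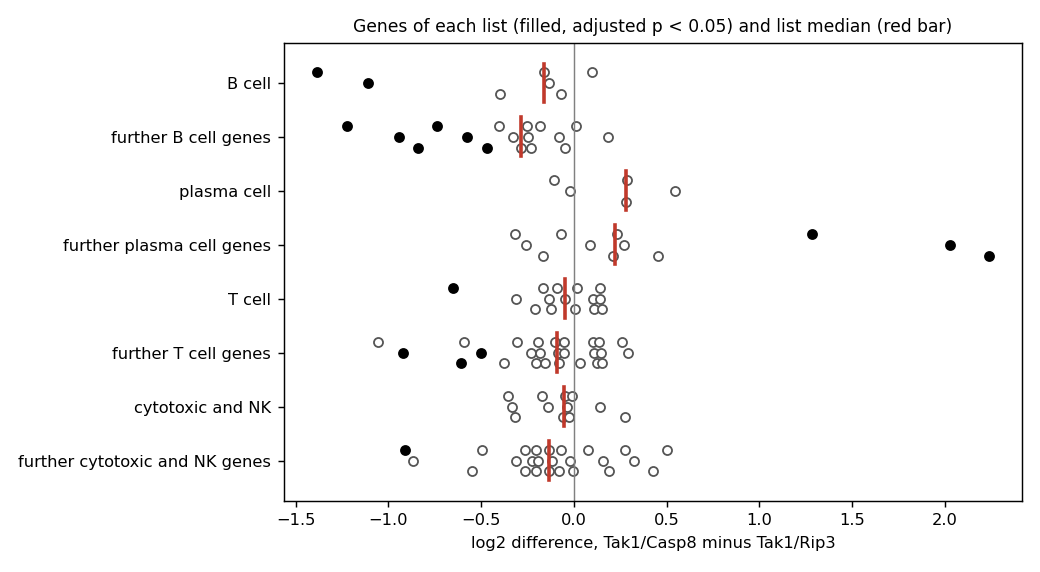
Log2 difference, Tak1/Casp8 minus Tak1/Rip3, of each measured gene (points) of the member subsets and of the further lists for the same cells, with the list median as a red bar. Filled points passed the limma test. The passing B cell genes lie left of 0 and the 3 passing plasma cell genes right of it.

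Of the 15 measured T cell members only Zap70 passed. The CD3 chains and their partner are the signal module of the T cell receptor, and Cd3e, the epsilon chain, had levels of 7.63, 7.83, 7.62 and 7.73 in Tak1/Casp8 livers, against 7.61, 7.83, 7.81 and 7.75 in Tak1/Rip3 livers. The ranges overlapped, with a difference of -0.05 and a 95% interval from -0.26 to 0.16. Cd3d (-0.13), Cd3g (0.01) and Cd247, which encodes the zeta chain (0.02), did not pass either. Cd3d and Cd247 were under the lower quartile on all 8 arrays.

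The coreceptor genes had negative differences that did not pass. Cd8a had levels of 6.81, 6.81, 6.70 and 6.89 in Tak1/Casp8 livers, against 7.03, 7.02, 6.92 and 7.08 in Tak1/Rip3 livers. Its groups did not overlap, but the difference was small (-0.21 ± 0.09, SE, n = 4 each, limma adjusted p = 0.196). Cd4, which some macrophages and dendritic cells express too, had levels of 6.92, 6.78, 6.75 and 6.94 in Tak1/Casp8 livers, against 7.02, 7.07, 6.97 and 7.02 in Tak1/Rip3 livers. These did not overlap either, by a narrow margin (-0.17 ± 0.09, adjusted p = 0.301), and Cd4 passed when its brighter probe sets alone were used (-0.46, adjusted p = 0.0199). Cd8b1 differed by -0.31 as the median of its probe sets and passed with the brightest of them (-0.57, adjusted p = 0.0348). Without Tak1/Casp8 replicate 3, at 6.45 the lowest of its 8 values, it differed by -0.08.

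The other T cell members differed by 0.15 or less and did not pass. They comprise the adhesion and inhibitory receptors Cd2 (0.14) and Cd5 (-0.09), the costimulatory receptor genes Cd28 (0.15) and Icos (0.11), the checkpoint gene Ctla4 (0.10), Foxp3, the regulator of regulatory T cells (0.14), and Lat, the adaptor that ZAP-70 phosphorylates (-0.12). The adjusted p lay between 0.512 and 0.831. Of the 12 probe sets of Lat only 1 passed, a dim one with means of 4.91 in Tak1/Casp8 livers and 5.88 in Tak1/Rip3 livers (-0.97, adjusted p = 0.0387).

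Zap70, the kinase next to the T cell receptor, had levels of 6.67, 7.13, 6.46 and 6.93 in Tak1/Casp8 livers, against 7.60, 7.40, 7.33 and 7.45 in Tak1/Rip3 livers. The groups did not overlap, and the difference was -0.65 ± 0.14 (SE, n = 4 each), or 1.57-fold lower (limma adjusted p = 0.0234). The call was lost without Tak1/Casp8 replicate 1 or 3 or Tak1/Rip3 replicate 1 or 4 (adjusted p from 0.0503 to 0.0745). This gene value joins probe sets of unlike behaviour. Of the 17 probe sets of Zap70, 5 passed and all were lower in Tak1/Casp8 livers, and these 5 were the last in the numbering, positions 13 to 17. The other 12 differed by -0.69 to 0.82 with a median of 0.08, and none passed (smallest adjusted p 0.103).

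Among the last 5 probe sets of Zap70 were the 3 largest differences of any probe set of the members. The probe set in position 15 had levels of 6.13, 7.41, 5.62 and 7.81 in Tak1/Casp8 livers, against 10.35, 10.69, 10.28 and 10.44 in Tak1/Rip3 livers. It was 13.0-fold lower in Tak1/Casp8 livers (-3.70 ± 0.45, SE, n = 4 each, adjusted p = 0.00952 by limma over all probe sets). Of its Tak1/Casp8 values 2 were under the lower quartile, which makes the fold imprecise. Positions 16 and 17 were 3.06-fold and 2.39-fold lower. At positions 13 and 14 all 4 Tak1/Casp8 values were under the lower quartile, with means of 5.93 and 5.51 in Tak1/Casp8 livers, against 8.29 and 8.37 in Tak1/Rip3 livers, so no fold is given. The adjusted p of these 4 lay between 0.00141 and 0.0161, and at each of the 5 the groups did not overlap. The median of the 5 was 6.38, 7.13, 5.92 and 6.93 in Tak1/Casp8 livers, against 8.52, 8.66, 8.33 and 8.38 in Tak1/Rip3 livers. The median of the other 12 was 6.73, 6.97, 6.89 and 7.11 in Tak1/Casp8 livers, against 6.73, 6.70, 6.90 and 6.96 in Tak1/Rip3 livers, with no separation. The brightest of all 17, in position 10, had means of 10.36 in Tak1/Casp8 livers and 10.07 in Tak1/Rip3 livers.

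**Figure D4:**
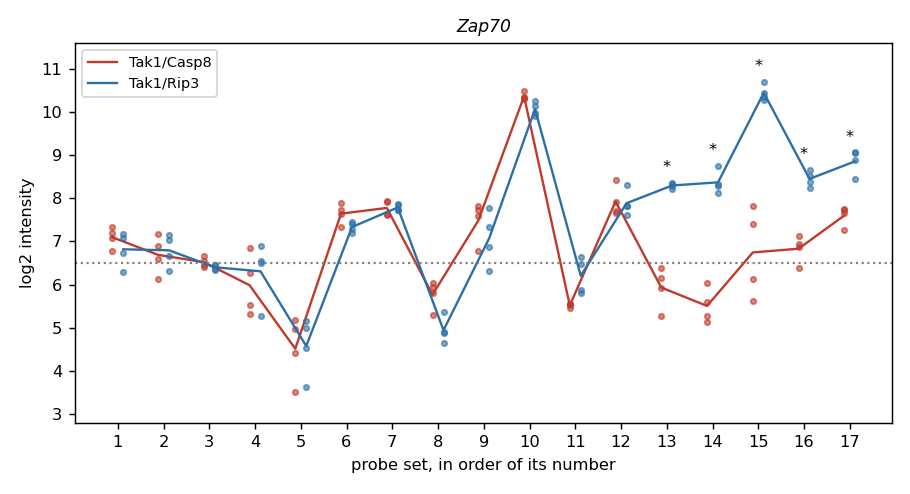
Log2 intensity of the 17 probe sets of Zap70 in the order of their numbers, with 1 point per array, group means as lines, the mean lower quartile dotted, and an asterisk where the probe set passed. The means differ by -0.69 to 0.82 over positions 1 to 12, and the Tak1/Casp8 line drops under the Tak1/Rip3 line over positions 13 to 17.

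Leaving out 1 array at a time kept 4 or 5 of the 5 calls, with 4 without Tak1/Rip3 replicate 1, 3 or 4, and called none of the other 12. Over the series, 8179 genes had at least 10 probe sets, and 10 of them, Zap70 included, showed a run of at least 5 lower probe sets that passed while at least as many probe sets of the gene did not. Among 475 genes on the plus strand of chromosome 1, 98.9% of neighbouring genes had their lowest probe set numbers in the order of their positions. That compares genes with each other and does not give the order of probe sets within a gene. Zap70 lies on that strand at chr1:36761798-36782821 (GRCm38.p6), and the inner start shown above falls toward its end. Positions of probe sets within Zap70 were not among the sources used, so the 5 probe sets were not placed relative to that start.

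Of 26 measured further T cell genes, 3 passed, all lower in Tak1/Casp8 livers, or 11.5% against 4.05% of all genes, with a median of -0.09. Themis, a T cell receptor signalling gene of developing T cells, was lower (-0.92 ± 0.12, SE, n = 4 each, limma adjusted p = 0.00273) and passed whichever array was left out. Only 1 of its 4 Tak1/Casp8 values was over the lower quartile, so no fold is given. The transcription factor genes Gata3 (-0.61) and Tcf7 (-0.50) were lower too. Gata3 did not pass without Tak1/Rip3 replicate 1 or 3 (adjusted p up to 0.0692), and Tcf7 did not without Tak1/Casp8 replicate 1 or 3 or any 1 Tak1/Rip3 array (up to 0.0901). Il7r, the interleukin 7 receptor, differed by -1.05 without passing (adjusted p = 0.0521), and its groups did not overlap. The count was 1 without Tak1/Rip3 replicate 1 or 3 and 4 without Tak1/Casp8 replicate 4.

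None of the 12 cytotoxic and NK members passed, though 2 had an unadjusted p under 0.05, and the smallest adjusted p was 0.111. Nkg7, a protein of cytotoxic granules, had levels of 7.24, 6.90, 7.24 and 7.24 in Tak1/Casp8 livers, against 7.36, 7.52, 7.46 and 7.56 in Tak1/Rip3 livers. Its groups did not overlap, all 5 probe sets had negative differences, and the gene differed by -0.32 ± 0.11 (SE, n = 4 each, limma adjusted p = 0.111). Ncr1, the NK receptor NKp46, had levels of 5.29, 5.0, 5.42 and 5.17 in Tak1/Casp8 livers, against 5.77, 5.24, 5.54 and 5.75 in Tak1/Rip3 livers. All 8 values were under the lower quartile, and the difference was -0.36 ± 0.14 (adjusted p = 0.171).

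Perforin and the granzymes showed no shared direction, while 10 of the 12 members of the subset had negative differences. Perforin, Prf1, differed by -0.05, and the granzyme genes Gzma, Gzmb and Gzmk by -0.14, 0.27 and 0.14 (adjusted p from 0.417 to 0.87). Of the receptors, Klrd1 (CD94) differed by -0.33 and Klrb1c (NK1.1) by -0.06, both with medians under the lower quartile. All 6 probe sets of Klrd1 had negative differences, and the 2 of them over the lower quartile had means of 7.91 in Tak1/Casp8 livers and 8.11 in Tak1/Rip3 livers, and of 7.36 in Tak1/Casp8 livers and 7.85 in Tak1/Rip3 livers, without passing. Klrd1 as a gene passed without Tak1/Casp8 replicate 1 (-0.54, adjusted p = 0.0319). The transcription factor genes Eomes and Tbx21 differed by -0.03 and -0.04, the cytokine gene Ifng by -0.17 and the receptor chain Il2rb by -0.01. The widest 95% interval of the subset was that of Klrd1, from -0.75 to 0.08.

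Of 25 measured further cytotoxic and NK genes only Sh2d1b1 (EAT-2), an adaptor of NK cell receptors, passed, or 4%, against 6.69% of all genes. It was lower in Tak1/Casp8 livers (-0.91 ± 0.15, SE, n = 4 each, limma adjusted p = 0.00685), whichever array was left out. Its 4 Tak1/Casp8 values were all under the lower quartile, and none of its 4 probe sets passed. Of these 25 genes 19 were under the lower quartile on all 8 arrays, and the Klra genes among them have near-identical copies, so their values are uncertain. Klrk1, which encodes the receptor NKG2D, differed by -0.02. Its ligand genes Raet1e (-2.36 ± 0.18) and Raet1d (-1.80 ± 0.28) were lower. Raet1e stood at 6.31 ± 0.28 in Tak1/Casp8 livers and 8.67 ± 0.32 in Tak1/Rip3 livers (SD, n = 4 each). Its 4 Tak1/Casp8 values were all under the lower quartile. Raet1d stood at 9.00 ± 0.63 in Tak1/Casp8 livers and 10.80 ± 0.33 in Tak1/Rip3 livers. Raet1 genes too have close copies. The ligand gene H60b, under the lower quartile on all 8 arrays, differed by 0.08 (adjusted p = 0.824). Among 17 measured genes of ligands and chemokines that act on lymphocytes, Il18, a cytokine that drives interferon gamma in NK and T cells, was higher (0.88 ± 0.15), so that 3 of the 17 passed with the Raet1 genes, or 17.6% against 6.69% of all genes. Of the chemokine genes, Cxcl10 (-0.95, adjusted p = 0.108) and Cxcl11 (-0.64, 0.0528) had the largest differences without passing, Cxcl11 with groups that did not overlap. Cxcl13 (-0.36), Cxcl12 (-0.24), Cxcl9 (-0.11) and Cxcl16 (-0.03) did not pass either, nor did Tnfsf13b, which encodes the B cell survival factor BAFF (0.03).

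**Figure D5:**
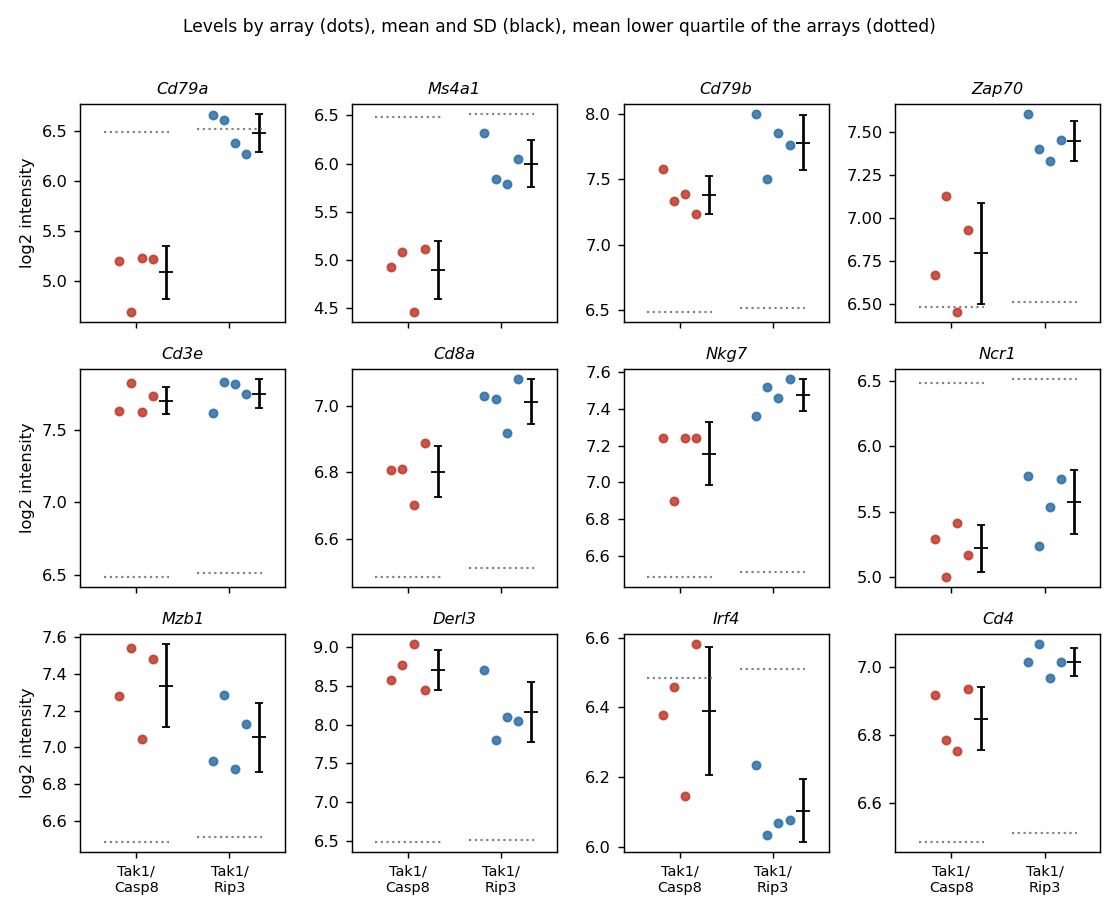
Log2 intensity of 12 lymphocyte genes on each array (dots), with the mean and SD of the 4 arrays (black) and the mean lower quartile of the arrays of that group (dotted). Cd79a separates the groups with 2 Tak1/Rip3 values over the dotted line and the other values under it, and Ms4a1 separates them under it. Cd3e lies over it in both groups with no separation, and Derl3 overlaps through Tak1/Rip3 replicate 1.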

How the data were processed

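RNA from snap-frozen liver was amplified, biotin-labelled and hybridised to 1 array per mouse, per the labels' protocols. The deposited values are log2 intensities to which the authors applied RMA, as the submitters' processing notes name it without a version. Groups follow the genotype labels. No batch or litter is labelled, so a batch that follows genotype cannot be told apart from it, and p-values measure the spread between these mice. The number of arrays limits the precision.

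Of 223771 probe sets 206316 had exactly 1 symbol, 3734 several and 13721 none, and 2571 old symbols were updated through a RefSeq gene table (GRCm38.p6). Gene values are medians over probe sets with 1 symbol. Differences were tested with limma 3.58.1 in R 4.3.3 (lmFit, eBayes, two-sided) over all 19560 genes, and apart from that over all probe sets. "Passed" means a Benjamini-Hochberg adjusted p under 0.05. The script was tested on simulated data.

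The members and lists were chosen with earlier results of these data known. Values on every array are given for members that passed, for the 2 with the smallest p in a subset with none, and for Cd3e, Cd8a, Cd4, Ncr1, Ms4a1 and Mzb1. Further lists allow the 4 genes with the smallest adjusted p (marker lists, 2). The array values of Cd79b, and any other gene of a further or marker list, were added after their values were seen. Alternatives were other normalisations, probe set summaries, level filters, variance models and leaving out arrays.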

Additional observations from a re-analysis of the deposited data

Results flagged for a closer look

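In 3 members 1 array of the Tak1/Casp8 group stood far from the other 3, by Dixon's test at its 95% level. All 3 were low values of Tak1/Casp8 replicate 2. Cd79a was 4.70 there, against 5.20 to 5.23 on the other Tak1/Casp8 arrays, and without that array it still differed by -1.25 (limma adjusted p = 0.0009). Nkg7 was 6.90, against 7.24 on the others, and differed by -0.23 without it (limma adjusted p = 0.251). Cd5 was 6.60, against 6.85 to 6.90. Of 78 tests of a member within a group, about 3.9 such values come by chance. These tests used gene values and so pass over single probe sets. At some of those, Tak1/Casp8 replicate 4 was far under all other arrays. Examples are position 4 of Cd4 (6.94, against 9.38 to 10.03) and position 4 of Cd3e (5.29, against 6.74 to 7.47). Without that array the same 3 members passed.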

How the results depend on the processing

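The number of members that passed, 3, was 2 to 4 when 1 array was left out, 1 with genes under the 30th percentile of level removed, 0 at the 50th, where only 2 members were left to test, and 1 with the unmoderated test with unequal variances. Over all genes 1308 passed, with 706 to 1347 without 1 array, 759 with the brightest probe sets and 115 with that test. With the brightest probe set Zap70 differed by 0.29 and Ripk3 by -0.0357, both without passing, and the members called were Cd8b1 and Cd79b instead of Cd79a, Ms4a1 and Zap70. Outside the 3 called members, 5 of 36 (Cd4, Cd8b1, Klrd1, Cd79b and Derl3) passed under some setting, and 23 changed sign under some setting without passing.

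The median difference of the T cell members was 0.0235 with arrays shifted to 1 median, -0.14 with the mean over probe sets, 0.0946 with the brightest and -0.159 with the brighter probe sets. For cytotoxic and NK members it was 0.0174 with shifted arrays, 0.0119 with the brightest and -0.0062 with the brighter probe sets, and -0.127 to -0.0236 without 1 array. For B cell members it was -0.30 with the mean and -0.25 with the brighter probe sets. For plasma cell members it was 0.13 with the mean, -0.0246 with the brightest and 0.0804 with the brighter probe sets. So only the B cell median kept its sign throughout. The cause was not tested. Members whose groups did not overlap numbered 6 to 11 without 1 array, and 13 when the least correlated array of each group was dropped, Tak1/Casp8 replicate 4 and Tak1/Rip3 replicate 2, where fewer arrays make overlap rarer. Members above background numbered 2 in Tak1/Casp8 livers and 1 in Tak1/Rip3 livers against the array median, 35 in Tak1/Casp8 livers and 36 in Tak1/Rip3 livers with the brightest probe sets, and 35 in each with the brighter ones. Of 322 member probe sets 10 passed (3.11%, against 1.63% of all probe sets), and 5 to 10 passed without 1 array. No paired analysis was possible because the labels pair no mice across the groups.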
